A study of Sparassis latifolia with 12 samples.

Results

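Sparassis latifolia, the cauliflower mushroom, is an edible wood-rotting basidiomycete, and 13 of its mRNAs were chosen by a rule for a low level at the end of cold storage. RNA-seq libraries came from fruiting bodies of the strain Minxiu No.1, packed in oriented polypropylene film, kept at 4 ℃ and sampled when fresh (day 0, group A), on day 8 (B), on day 16 (C) and on day 24 (D). Each day had 3 libraries, which makes 12 in all. The groups share strain, film and temperature, and no other packing or temperature is compared here. The methods speak of 3 replicates each time and do not say whether these were separate packages or fruiting bodies, so any p-value measures the spread between these libraries, which may be technical.

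The values are FPKM, read fragments per kilobase of transcript and per unit of mapped fragments in the library, as the authors estimated them. A member had a mean FPKM over the 12 libraries from 10 to under 1000, and its highest day 24 library was at most 0.5 times the lowest of the 9 libraries of days 0, 8 and 16. In addition, its highest library of days 8 and 16 had to exceed 0.5 times its lowest day 0 library. This part left out 0 of the mRNAs that met the others. It did not ask that days 8 and 16 match day 0, so a member could already be lower then. Of 13103 mRNAs in the table, 7988 lay in the range of means and 13 met the rule. Another 7 mRNAs, which the study names as ergosterol genes or as glutathione S-transferase, were left out beforehand, and 0 of the 7 met the thresholds. The members were thus chosen on these same FPKM values, so their low level on day 24 is a description and was given no test.

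A harvested fruiting body stays alive for weeks and lives on its own reserves, in a film that slows the exchange of oxygen, carbon dioxide and water. Stored mushrooms are known to consume sugars and proteins, to brown and to soften, and cold slows these changes. The level of an mRNA at any day reflects how fast it is made and how fast it is degraded. In RNA from whole tissue, fewer cells that make a transcript and less of it per cell cannot be told apart. The tables give identifiers without products, a search of the reference's locus tags found 0 of them, and the study names a product for none of the 13, so no role can be given to any of them.

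A level low only on day 24 after being present before was seen in 11 of the 13 mRNAs, which were above 0 in every library. The other 2, EVM0007380 and EVM0011304, were listed at 0 in all day 24 libraries and also in all day 0 libraries, and met the rule because 0 is at most 0.5 times 0. They are described apart, and all counts over 11 mRNAs leave them out.

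Over the 11 mRNAs, the mean of the 9 earlier libraries was 3.84 to 17.9 times the mean of the 3 day 24 libraries, with a median of 5.13. Over all 7988 mRNAs of the same range of means, the median of this ratio was 1.03. The 3 day 24 libraries lay below all 9 earlier ones in 4.99% of the 7988 mRNAs (399), a background from which nothing is read here, since the rule itself asks for more than this of each member. All 3 lay above the 9 earlier ones in 8.24%, and in 0 of the 11. Against day 0 alone, the ratio of the mean to that of day 24 was 2.98 to 32.7 (median 5.28). Against day 8 it was 3.39 to 20.2 (median 6.05), and against day 16 it was 2.87 to 7.35 (median 4.50). The 11 differed widely in abundance, with a mean FPKM of 16.3 to 364 (median 29.6), against a median of 40.7 over the 7988. EVM0004940, EVM0011350 and EVM0003608 lay at percentiles 14.0 to 15.2 of the 7988, and EVM0003880, EVM0005280 and EVM0009805 at 86.5 to 97.4.

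**Figure D1:**
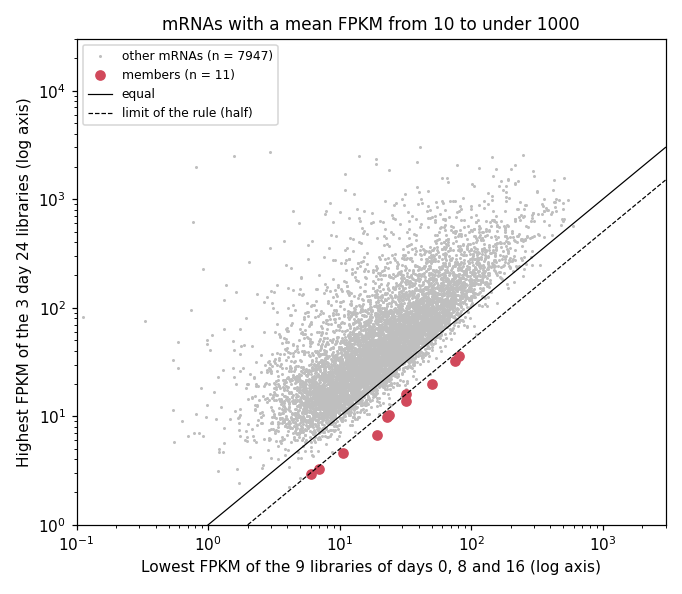
Each grey point is an mRNA with a mean FPKM from 10 to under 1000, placed by its lowest FPKM among the 9 libraries of days 0, 8 and 16 (x, log axis) and its highest among the 3 day 24 libraries (y, log axis); 30 mRNAs with a 0 on either axis are not drawn. The 11 red members lie below the dashed line of the rule, with the lowest earlier library 2.004 to 2.86 times the highest day 24 library.

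The members lay close to the limit of the rule. The lowest earlier library was 2.004 to 2.86 times the highest day 24 library, with a median of 2.31. Just inside the limit stood EVM0009270, with a highest day 24 value of 15.99 against a lowest earlier value of 32.05, EVM0003608 (2.96 against 6.08) and EVM0004940 (3.28 against 6.91). Just outside stood EVM0001796 (24.8 against 48.9), EVM0000874 (12.6 against 24.8) and EVM0007904 (15.2 against 29.3). For EVM0001796 the mean of the earlier libraries was 8.41 times that of day 24, a larger ratio than in 7 of the 11 members, so the members do not hold all mRNAs with a large difference.

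Apart from the low level on day 24 that they share, the 11 mRNAs took different courses. Of days 0, 8 and 16, the highest mean was on day 8 in 5 of them, on day 0 in 5 and on day 16 in 1. Over the same days, the highest mean of the 7988 mRNAs was on day 8 in 30.6%, on day 0 in 45.5% and on day 16 in 23.9%. Nothing is read from these shares, since the rule used the values. They are described in this order.

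EVM0003608 was the mRNA with the largest ratio of day 8 to day 0. Its FPKM was 6.92, 16.1 and 6.08 in replicates 1, 2 and 3 of day 0, 31.8, 70.0 and 15.4 on day 8, 15.8, 20.2 and 11.8 on day 16, and 2.11, 2.42 and 2.96 on day 24. The mean of day 8 was 4.03 times that of day 0, although replicate 3 of day 8 lay just below replicate 2 of day 0. By day 24 the mean was 2.50 ± 0.429 (SD, n = 3), below the 9.70 ± 5.56 of fresh fruiting bodies.

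EVM0005280 was the second most abundant of the 11 and had the largest ratio of day 8 to day 24. It stood at 50.4, 265 and 68.6 FPKM on day 0, 303, 506 and 178 on day 8, 92.2, 143 and 123 on day 16, and 19.98, 18.8 and 9.9996 on day 24. Only replicate 2 of day 0 reached into the range of day 8. The means were 329 ± 165 on day 8 and 16.2 ± 5.45 on day 24 (SD, n = 3 each), a ratio of 20.2.

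EVM0003570 and EVM0011350 were also highest on day 8, at lower levels. EVM0003570 had 25.2, 34.1 and 23.6 FPKM on day 0, 52.2, 57.2 and 29.5 on day 8, 30.6, 32.2 and 35.6 on day 16, and 8.69, 8.83 and 10.3 on day 24. EVM0011350 had 10.6, 26.3 and 12.5 on day 0, 43.6, 39.6 and 13.4 on day 8, 17.8, 13.0 and 13.2 on day 16, and 3.05, 4.58 and 3.58 on day 24. In both, replicates 1 and 2 of day 8 lay above all other libraries, while replicate 3 lay within the range of days 0 and 16. In EVM0003570 the mean of the earlier libraries was 3.84 times that of day 24, the smallest ratio of the 11, and in EVM0011350 it was 5.65 times.

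EVM0012881 differed from these in its narrow spread and lay farthest inside the limit. Its FPKM was 26.2, 19.2 and 28.4 on day 0, 38.8, 33.1 and 36.1 on day 8, 27.5, 28.7 and 24.1 on day 16, and 6.70, 5.02 and 6.12 on day 24. All 3 day 8 libraries lay above all those of day 0 and day 16. It was the only member of the 11 whose day 8 libraries lay above all day 0 libraries, against 27.0% of the 7988 mRNAs.

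EVM0005440 alone had its highest mean on day 16. It had 58.5, 49.2 and 31.9 FPKM on day 0, 47.4, 64.6 and 62.7 on day 8, 69.3, 81.5 and 58.1 on day 16, and 9.40, 10.9 and 13.7 on day 24. Days 0, 8 and 16 overlapped one another. The means were 69.7 ± 11.7 on day 16 and 11.3 ± 2.20 on day 24 (SD, n = 3 each), a ratio of 6.15.

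**Figure D2:**
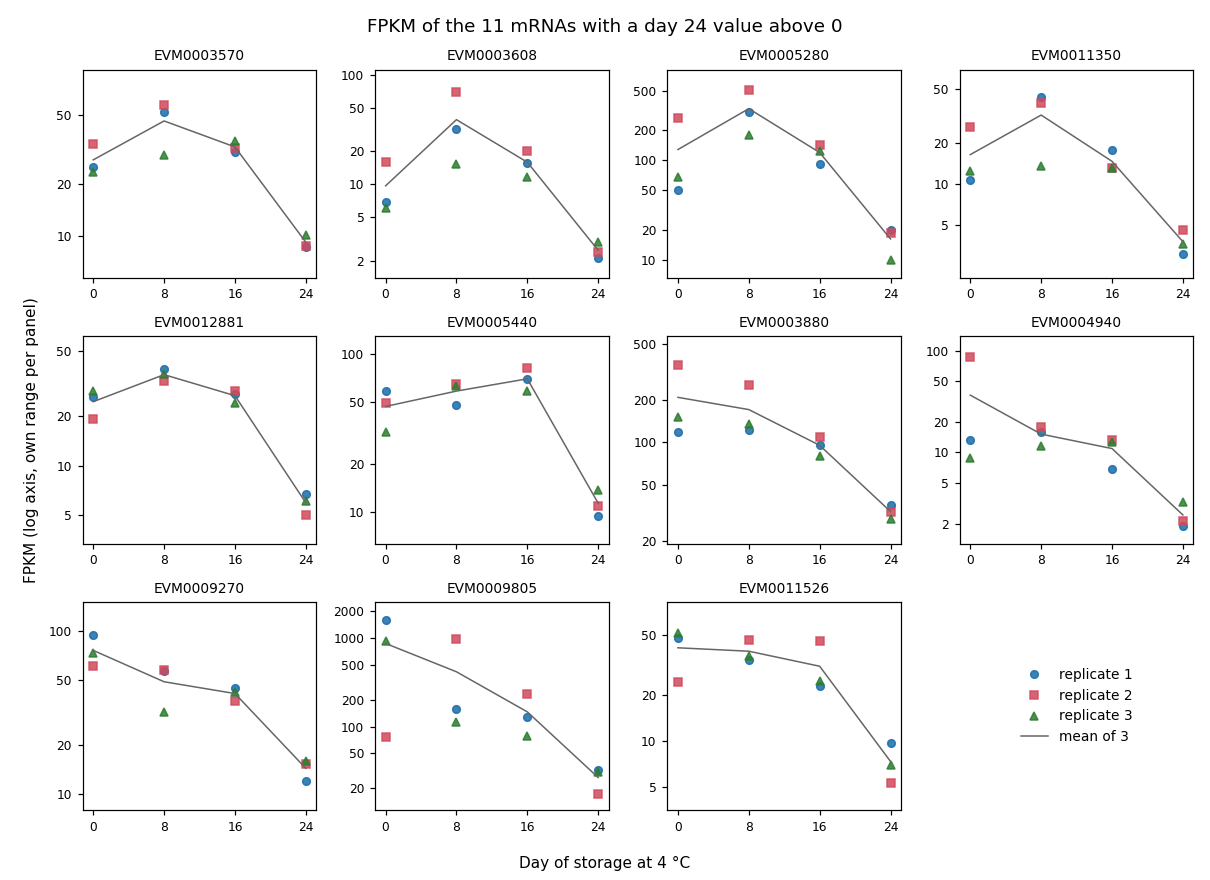
FPKM (y, log axis with its own range per panel) of the 11 mRNAs by day of storage (x); each symbol is 1 library and the grey line joins the means of 3. The day 24 symbols lie below all others in every panel, and replicate 2 of day 0 stands apart from the other fresh libraries in several panels, up in EVM0005280 and EVM0004940 and down in EVM0009805.

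EVM0009805, the most abundant member, had the widest range of all. Its FPKM was 1591, 75.9 and 935 on day 0, 157, 978 and 111 on day 8, 127, 234 and 78.6 on day 16, and 32.02, 17.2 and 30.5 on day 24. Within day 0 the values spanned 21.0-fold and within day 8 they spanned 8.77-fold, so days 0, 8 and 16 overlapped widely. The mean of the earlier libraries was 17.9 times that of day 24, the largest ratio of the 11, and the lowest fresh library was 2.37 times the highest day 24 library.

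EVM0003880 and EVM0004940 were each highest in replicate 2 of day 0. EVM0003880 had 118, 356 and 151 FPKM on day 0, 122, 256 and 135 on day 8, 96.4, 109 and 80.2 on day 16, and 36.2, 31.99 and 28.6 on day 24. EVM0004940 had 13.4, 87.6 and 8.80 on day 0, 16.0, 17.8 and 11.6 on day 8, 6.91, 13.3 and 12.6 on day 16, and 1.90, 2.104 and 3.28 on day 24. The mean of days 8 and 16 was 0.638 times that of day 0 in EVM0003880 and 0.356 times in EVM0004940. Without replicate 2 of day 0 these ratios were 0.987 and 1.18, so that the lower joint mean of days 8 and 16 rested on that library. For day 16 alone this does not hold in EVM0003880, whose day 16 libraries (80.2 to 109) lay below every day 0 library (118 to 356).

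EVM0009270 was the only member whose 6 libraries of days 8 and 16 all lay below the 3 of day 0, against 21.8% of the 7988 mRNAs. Its FPKM was 94.1, 61.0 and 73.3 on day 0, 56.9, 57.8 and 32.05 on day 8, 44.5, 37.2 and 42.6 on day 16, and 12.03, 15.2 and 15.99 on day 24. The means of days 0, 8, 16 and 24 were 76.1 ± 16.7, 48.9 ± 14.6, 41.4 ± 3.82 and 14.4 ± 2.104 (SD, n = 3 each).

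EVM0011526 varied little between days 0, 8 and 16. It had 47.3, 24.6 and 51.2 FPKM on day 0, 34.0, 46.5 and 36.5 on day 8, 22.9, 45.3 and 25.02 on day 16, and 9.78, 5.31 and 7.002 on day 24. The first 3 days overlapped, with replicate 2 of day 0 and replicates 1 and 3 of day 16 at the lower end.

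The 2 mRNAs listed at 0 on day 24 had another pattern, with values above 0 only in libraries of day 8 or day 16. EVM0011304 was listed at 0 in all libraries of days 0 and 24 and in replicate 1 of day 8, at 26.2 and 48.3 FPKM in replicates 2 and 3 of day 8, and at 62.9, 37.9 and 52.6 on day 16. It was therefore above 0 in 5 of the 6 libraries of days 8 and 16 and listed at 0 in all others. EVM0007380 was listed at 82.0 and 109.7 FPKM in replicates 1 and 3 of day 8 and at 0 in the other 10 libraries. Its mean of 16.0 over all libraries rests on these 2 values. No read counts stand behind these zeros, so a listed 0 need not mean that the transcript was absent, and no fold is given against it.

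**Figure D3:**
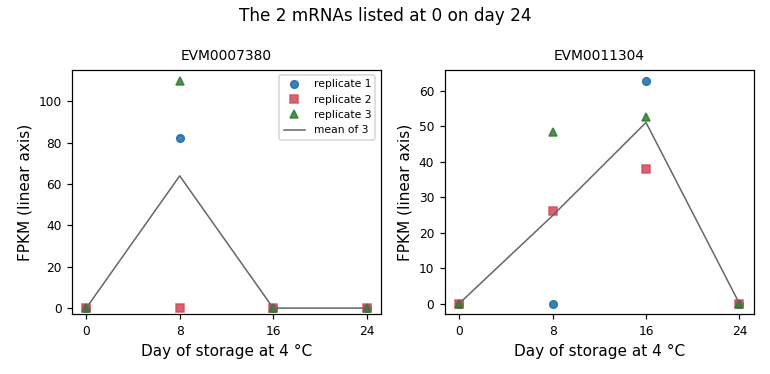
FPKM (y, linear axis) of EVM0007380 and EVM0011304 by day of storage (x); each symbol is 1 library, and the symbols of the 3 replicates overlap where all are at 0. EVM0011304 is above 0 in all 3 day 16 libraries and EVM0007380 in 2 day 8 libraries only.

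Whether the members already moved between day 8 and day 16 is the one comparison of days that the rule did not set, because it treats these 6 libraries alike. By the estimates EVM0005280, EVM0003608 and EVM0009805 were lowest on day 16 relative to day 8, EVM0005440 alone of the 11 was higher, and none of these differences passed the test. The test was limma, applied to log2 of scaled FPKM plus 1, with the scaling done by a factor per library of 0.983 to 1.02, in one fit of all 12 libraries over the 10962 mRNAs that reached an FPKM of 1 in 3 or more libraries. Of the 13 mRNAs 12 passed this filter, and EVM0007380 did not. To be called, an mRNA needed a log2 fold change of 1 or more, up or down, with an adjusted p below 0.05. By limma, 0 of the 12 were called, against 0.00% of all mRNAs tested (0 of 10962). Without replicate 3 of day 8, 29 of all mRNAs were called and still 0 of the members. At an unadjusted p under 0.05 there were 2 of the 12, EVM0005280 and EVM0011350, and 537 of all.

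The log2 fold change of day 16 against day 8 was -1.33 for EVM0005280 (standard error 0.553), -0.998 for EVM0003608 (0.469), -0.93 for EVM0009805 (1.04) and -0.91 for EVM0011350 (0.416), each with a limma adjusted p of 1. It was -0.17 for EVM0009270 (0.241) and 0.28 for EVM0005440 (0.244). EVM0011304, with its values at 0, had 2.23 (1.05), a value that depends on the pseudocount. The median over the 12 was -0.43, against 0.00592 over all mRNAs tested.

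By their means, 10 of the 11 mRNAs were higher on day 8 than on day 16, against 55.5% of the 7988 mRNAs. The mean of day 8 was at least 1.5 times that of day 16 in 5 of the 11, against a background of 4.62%. These were EVM0009805 (2.84 times), EVM0005280 (2.75), EVM0003608 (2.45), EVM0011350 (2.20) and EVM0003880 (1.79). The 3 day 8 libraries lay wholly above the 3 of day 16 in EVM0003880, EVM0005280 and EVM0012881, which is 3 of 11 against 6.40%, and wholly below in 0 of 11 against 6.35%. Without replicate 2 of day 8 the ratio of day 8 to day 16 was 0.916 in EVM0009805 and 1.48 in EVM0003608, and 9 of the 11 were higher on day 8.

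**Figure D4:**
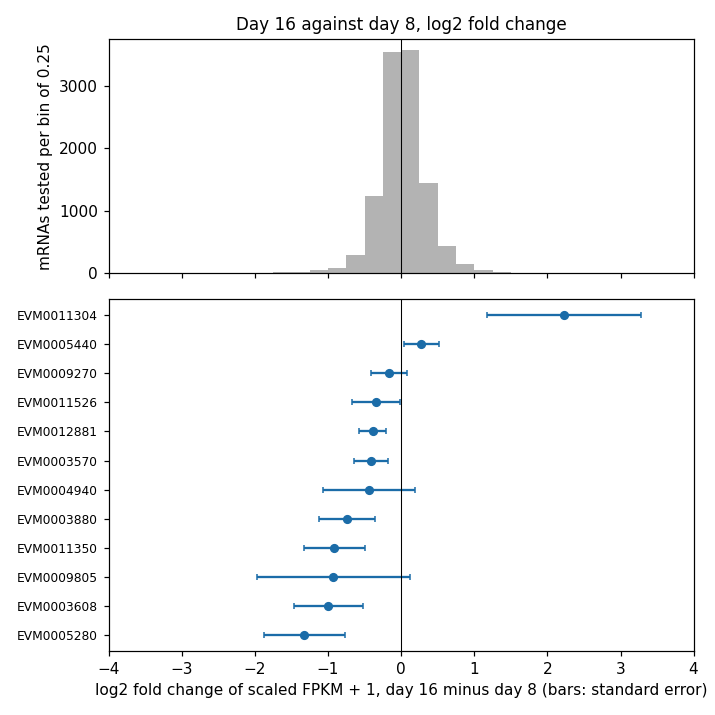
Upper panel, number of mRNAs tested per bin of 0.25 in the log2 fold change of day 16 against day 8 (1 of 10962 lies outside the axis); lower panel, the same quantity for the 12 members tested, with bars of 1 standard error. Of the 12 members 10 lie left of 0, EVM0005280 farthest at -1.33, and none was called.

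Calls against fresh fruiting bodies before day 24 are given as a description only, since the day 0, 8 and 16 libraries were part of the rule. Of the 11 mRNAs above 0 in every library, limma called 2 higher on day 8, against 13.6% of all mRNAs tested, and 0 lower, against 16.8%. These were EVM0003608 (log2 fold change 1.75, standard error 0.469, limma adjusted p = 0.0101) and EVM0005280 (1.59, 0.553, limma adjusted p = 0.0340). On day 16, 0 of the 11 were called higher, against 14.6%, and 0 lower, against 16.7%. In either direction the backgrounds were 30.5% on day 8 and 31.3% on day 16. EVM0011304, at 0 on day 0, was also called higher on both days, but it passed the filter only through its libraries of days 8 and 16, so that these calls are not counted. The call of EVM0003608 held without any 1 library and was lost with only the 2 groups in the fit. That of EVM0005280 was lost there too, and without replicate 1 or 3 of day 0 or replicate 1 or 2 of day 8. Without replicate 2 of day 0, 4 of the 11 were called on day 8 (EVM0011350 also higher, and EVM0009805 lower) and 2 on day 16 (EVM0009270 and EVM0009805, both lower). Calls over all mRNAs rose as well, from 3340 to 3704 on day 8 and from 3436 to 3844 on day 16. EVM0011350 was also called higher on day 8 without replicate 3 of that day, when 3346 of all mRNAs were called. On day 16, EVM0003880 was called lower without replicate 1 of day 0 and EVM0004940 without replicate 3, when 3126 and 3181 of all mRNAs were called.

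In 10 of the 11 mRNAs the libraries of days 8 and 16 overlapped those of day 0, against 54.1% of the 7988. The mean of days 8 and 16 was above that of day 0 in 6 of the 11 and below it in 5, with ratios from 0.324 in EVM0009805 to 2.84 in EVM0003608 (median 1.27). Over the 7988 mRNAs the median ratio was 1.01. EVM0005280 (1.75), EVM0003570 (1.43) and EVM0011350 (1.43) had the next highest ratios, and EVM0004940 (0.356), EVM0009270 (0.593) and EVM0003880 (0.638) the next lowest. For EVM0005280 the ratio was 3.77 without replicate 2 of day 0. For EVM0009805 it was 0.556 without replicate 1 of day 0 and 0.163 without replicate 2 of day 8.

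By their median, the 11 mRNAs varied more between the day 0 libraries than the 7988 did. The coefficient of variation over the 3 libraries had a median of 52.2% on day 0 over the 11, against 24.6% over the 7988 mRNAs. On day 8 the medians were 31.9% and 21.1%, on day 16 they were 18.6% and 12.8%, and on day 24 they were 19.4% and 13.8%. The day 0 values ranged from 19.6% in EVM0012881 to 121% in EVM0004940. Those of EVM0012881, EVM0003570 (20.5%) and EVM0009270 (22.0%) lay below 24.6%, and the others above it.

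Replicate 2 of day 0 stood apart from the other fresh libraries in several of the 11 mRNAs. It was above both in 6 of the 11 mRNAs, against 41.3% of the 7988, and at least 2 times the mean of both in 5, against 10.3%. The ratio was 7.90 in EVM0004940, 4.45 in EVM0005280, 2.64 in EVM0003880, 2.48 in EVM0003608 and 2.28 in EVM0011350. In EVM0009805 it was 0.0601 and in EVM0011526 it was 0.5002, so that the library was not high throughout. Replicate 3 of day 8 was below replicates 1 and 2 in 7 of the 11, against 40.1%, with its lowest ratios to their mean in EVM0009805 (0.196), EVM0003608 (0.303) and EVM0011350 (0.323). The rule used all these values, so the shares are a description and nothing is read from them.

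No day 24 library was highest or lowest throughout. The highest of the 3 day 24 values was in replicate 1 for 5 mRNAs, in replicate 3 for 5 and in replicate 2 for 1. Replicate 3 differed from the others in the number of mRNAs above 0, with 12789 against 11480 in replicate 1 and 11133 in replicate 2. The day 0 libraries had 12636 to 12886, those of days 8 and 16 had 10956 to 11061, and whether this bears on the members was not tested. With the members kept, the median ratio of earlier libraries to day 24 was 5.53 without replicate 3, 5.23 without replicate 1 and 5.03 without replicate 2. The share of the summed mRNA FPKM held by the 10 most abundant mRNAs was 10.04% to 14.7% on day 24, within the 9.42% to 23.5% of the earlier libraries. The summed mRNA FPKM was 851430 to 931532 on day 24 and 666845 to 885589 before. The median ratio of the members was 5.17 with FPKM scaled per library and 5.09 with quantile normalization.

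mRNAs that stood apart on a single day were mostly those of day 0. Among the 7988 mRNAs, 86 were on day 0 at most 0.5 times their level in every other library, and 11 were so on day 24, the same 11 described above. On day 8 there were 3 and on day 16 there were 0. In the upward direction, 73 mRNAs were on day 0 at least 2 times as high as in every other library, which are the mRNAs already low throughout storage, and 17 were so on day 24. On days 8 and 16 there were 0 each. No test was run on these counts.

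**Figure D5:**
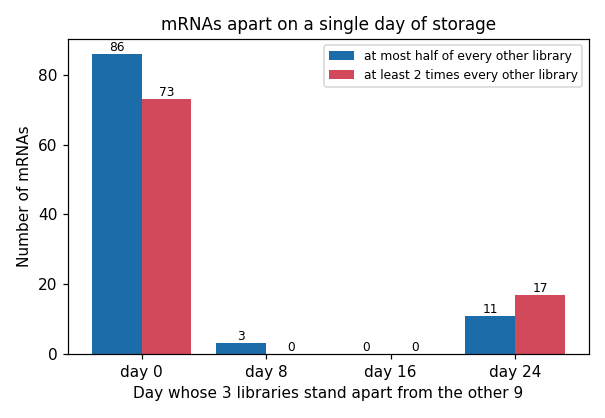
Number of mRNAs with a mean FPKM from 10 to under 1000 (y) whose 3 libraries of 1 day (x) were all at most 0.5 times every one of the other 9 libraries (blue, above 0 on that day) or all at least 2 times as high (red). Day 24 has 11 low and 17 high mRNAs, day 0 has 86 and 73.

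The same rule applied to the 1003 long non-coding RNAs, of which 795 had a mean FPKM from 10 to under 1000, was met by 3. XLOC_004793 had 79.8, 90.1 and 89.8 FPKM on day 0, 165, 151 and 91.6 on day 8, 90.4, 82.4 and 119.8 on day 16, and 28.3, 21.4 and 22.0 on day 24. Its replicates 1 and 2 of day 8 were the highest, as in EVM0003570 and EVM0011350. XLOC_007917 had 506, 1107 and 1156 on day 0, 1468, 1822 and 179.9 on day 8, 253, 427 and 342 on day 16, and 80.5, 73.6 and 52.2 on day 24. XLOC_007478 was listed at 0 on days 16 and 24 and in replicate 2 of days 0 and 8, and at 561 to 5243 in the other 4 libraries. It met the rule only through its values at 0.

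The mRNAs to which the study gives an energy or antioxidant product took another course. The 6 of these outside the left-out identifiers were formate dehydrogenase, alcohol dehydrogenase 1, pyruvate decarboxylase, catalase, glycerol-3-phosphate dehydrogenase and pyruvate kinase. None could be a member, since all 6 had a higher mean FPKM on day 24 than on day 0, and 2 of them, alcohol dehydrogenase 1 (EVM0007108) and pyruvate kinase (EVM0009831), exceeded the range of means. The day 24 mean was 3896 against 1026 on day 0 for pyruvate kinase, the last enzyme of glycolysis. Pyruvate decarboxylase (EVM0009327), which opens the path from pyruvate to ethanol, went from a mean FPKM of 767 on day 8 and 696 on day 16 to 291 on day 24, but stayed above the 84.1 of day 0.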

How the data were processed

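RNA-seq of 12 libraries was used, 3 for each day. Per the labels and methods, the libraries were depleted of ribosomal RNA. The methods and the submitters' processing notes name cutadapt 2.7 and FastQC 0.11.8 for the reads, HISAT2 2.1.0 for alignment and StringTie 1.3.3b for quantification. FPKM values, normalized by the authors for transcript length and mapped fragments, were deposited. The methods point to an NCBI assembly of the species as the reference and name a directional library kit. For strand use in the estimates, the setting was not given in the sources used here. No read counts were used, so the number of reads behind a single value is unknown and DESeq2, the study's test, was not repeated. The paper lists reads and mapping rates per library. The share of uniquely mapped reads was lower in every library of days 8 and 24 than in any of days 0 and 16. Every day 8 library had more clean reads than any of days 0 and 24. Whether this bears on the comparisons of days was not tested.

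The rule was applied to FPKM as deposited. FPKM was scaled by median-of-ratios factors, and days were compared with limma 3.58.1 (R 4.3.3) on log2(scaled FPKM + 1), with a trended prior variance and p-values adjusted by Benjamini and Hochberg over 10962 mRNAs. This scale understates changes of low genes. The procedure was tested on simulated data. All 13 members are named, with the 3 mRNAs nearest outside the limit, the lncRNAs that meet the rule and mRNAs the study names. Members, lists and tests were chosen with earlier results of these data known. Python 3.11.15 with matplotlib 3.10.9 drew the figures.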

Additional observations from a re-analysis of the deposited data

How the results depend on the processing

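The number of members depended on the rule more than on the scaling. It was 4 with a factor of 0.4 (2 of them above 0 on day 24), 25 with a factor of 0.6, 126 with the mean of each day in place of its extremes (11 of the 13 shared) and 22 with the range of means widened to 1 and above, against 13 with scaled FPKM. Leaving out 1 library asks less of each mRNA and gave 13 to 23, with 22 without replicate 2 of day 0 and 22, 23 and 20 without replicates 1, 2 and 3 of day 24. All 13 were kept without any 1 day 24 library, but leaving out such a library can only lower the highest day 24 value. Of the 13, 12 were kept without replicate 2 of day 0, and 10 of these were above 0 on day 24. Without replicate 1 or replicate 3 of day 8, 12 were kept as well, and all 13 without any other library. Leaving out libraries gave 1 to 5 members called on day 8 against day 0 and 1 to 3 on day 16, and 0 on day 16 against day 8, EVM0011304 included in these counts. Over all mRNAs the same fits called 3032 to 3704 on day 8 against day 0, 3098 to 3844 on day 16, and 0 to 29 on day 16 against day 8. With only the 2 groups compared in the fit, 0 members were called on day 8 against day 0, and 2894 of all mRNAs. For EVM0009805 the log2 fold change of day 16 against day 8 turned to 0.0251 without replicate 2 of day 8 (limma adjusted p = 1), and lay from -1.52 to 0.0251 over all left-out libraries. Same-numbered libraries of different days showed no common direction: the correlation of their deviations was -0.37 to 0.35, over 0.1 in 4 of 18 pairs. Libraries of unlike number were not correlated for comparison. With the replicate number as a block, 3, 1 and 0 members were called on day 8 and day 16 against day 0 and on day 16 against day 8, as without it. The call on day 16 and 1 of the 3 on day 8 were EVM0011304, which passed the filter only through days 8 and 16. Over all mRNAs the block fit called 3333, 3442 and 0. The ratios of days 8 and 16 to day 0 and of day 8 to day 16 with libraries left out were alternatives chosen after seeing the data.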
